A study of Mus musculus with 6 samples.

Results

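Transcripts of 38 genes that sense or repair DNA damage were compared between RAW 264.7 cells without a knockout (WT) and RAW 264.7 cells labelled as APOBEC1 knockout (KO). The 38 genes were taken by symbol from the 24848 rows of the deposited expression table, and all of them have a row. They are checkpoint kinases and genes of homologous recombination, the Fanconi anaemia pathway, end joining, mismatch repair, nucleotide excision repair and base excision repair, the last with the enzymes that remove uracil. RAW 264.7 is a mouse macrophage-like line grown from a tumour that Abelson leukaemia virus induced in a BALB/c mouse. Both groups were grown in high-glucose DMEM with 5% fetal bovine serum, glutamine, penicillin and streptomycin, with no further treatment in the labels, and each holds 3 libraries of mRNA from separate plates. The series was made to test a tool that reads RNA editing from Sanger sequencing traces. How the knockout was made and from how many clones it came are not in the labels, so APOBEC1 loss and any other difference between these cells cannot be told apart. Every p-value here rests only on the spread between libraries from separate plates, which includes library preparation and counting error.

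APOBEC1 is a cytidine deaminase that edits RNA and can also deaminate cytosine in DNA, which leaves uracil. Base excision repair removes uracil and oxidised bases through a glycosylase, an endonuclease, a polymerase and a ligase held together by scaffold proteins. Mismatch repair corrects replication errors, nucleotide excision repair cuts out bulky lesions, and broken DNA is either rejoined by end joining or copied from the sister chromatid by homologous recombination. The kinases ATM and ATR report breaks and stalled forks through CHEK2 and CHEK1 and hold the cell cycle while repair proceeds. Many of these genes are transcribed as cells enter DNA synthesis, and E2F factors and the CCAAT-binding factor NF-Y are known regulators of such promoters.

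Of the 38 genes, 37 reached 1 CPM (CPM is a read count scaled to the total reads of its library) in at least 3 of the 6 libraries and were tested. Brca1, Trp53bp1, Msh6 and Ung rose in the KO cells by 1.19-fold to 1.31-fold, and Xrcc1 fell to 0.825 of its WT level. The other 32 did not pass the test (limma on log2(CPM + 0.5), Benjamini-Hochberg adjusted p under 0.05 over all 10614 tested genes). The 5 called genes are 13.5% of those tested, beside 30.4% of all tested genes. Among all genes 13.5% were called higher and 16.9% lower, against 10.8% and 2.7% of the repair genes. Over all genes that split was 1436 higher to 1794 lower, and it turned to 2933 higher and 2141 lower when a trend on transcript length and G and C content was removed from each library. Of the 1436 genes called higher, 503 lie on chromosome 2, where 1 of the 37 repair genes lies. The median log2 fold change (KO minus WT) of the repair genes was 0.02 and that of all tested genes was -0.02, with 20 repair genes above 0 and 17 below. None of the 37 differed by 1.5-fold or more, as 10.5% of all tested genes did, and their log2 fold changes ran from -0.28 to 0.39.

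In 13 of the 37 genes (35.1%) the 3 KO values lay all above or all below the 3 WT values, 7 of them higher and 6 lower in KO. Over all tested genes 46.4% showed such a separation, 20.9% with KO higher and 25.4% with KO lower. Count models on the recovered whole reads called 7 of the 37 with edgeR (31.6% of all genes) and 8 with DESeq2 (35.4%). edgeR added Chek2 and Xrcc2 to the 5 genes above, and DESeq2 added Mre11a to those 7. At an unadjusted p under 0.05, limma gave 10 of the 37 genes, beside 4437 of all 10614 tested genes.

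**Figure D1:**
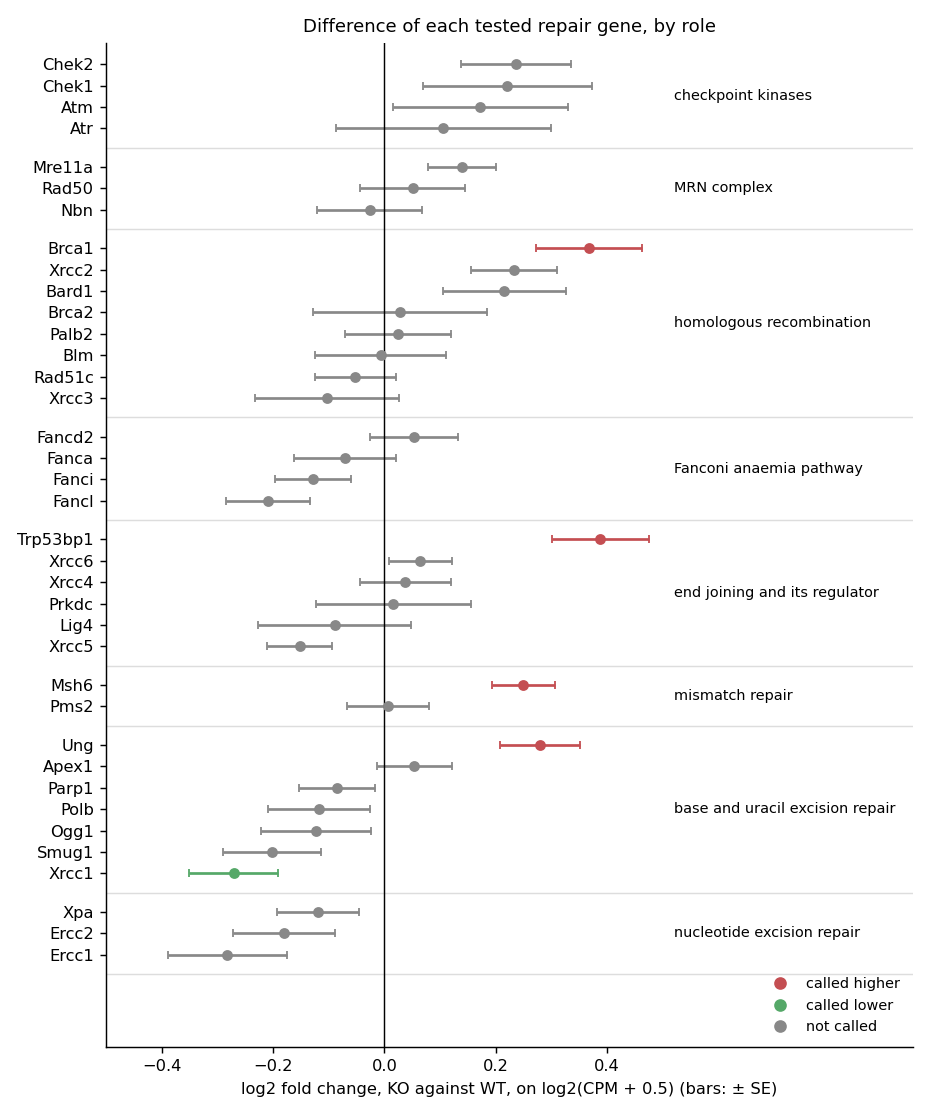
Log2 fold change of each of the 37 tested repair genes (horizontal axis, KO against WT on log2(CPM + 0.5)), grouped by role, with bars for ± SE from limma. Brca1, Trp53bp1, Msh6 and Ung are the called genes to the right of 0, and Xrcc1 is the called gene to the left.

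The upstream DNA of 3 genes called higher, Brca1, Msh6 and Ung, is printed here. The Brca1 and Msh6 stretches hold the letters of known cell cycle promoter elements, and the Ung stretch does not. That of Trp53bp1 and Xrcc1, the other called genes, is not printed. Any part of such elements in the differences was not tested. The letters come from RefSeq windows around each gene start on GRCm38, run 5′ to 3′ on the gene's own strand, and exclude annotated exons except for the short Msh6 stretch. Capitals mark a CCAAT box, in either orientation, or the E2F-like motif TTTNNCGC.
Brca1, chr11:101551956-101552148, minus strand: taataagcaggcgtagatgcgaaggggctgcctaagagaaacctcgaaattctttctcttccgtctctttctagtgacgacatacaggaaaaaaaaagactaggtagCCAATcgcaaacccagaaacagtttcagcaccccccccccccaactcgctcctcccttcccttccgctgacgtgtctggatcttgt
Msh6, chr17:87974800-87975061, plus strand: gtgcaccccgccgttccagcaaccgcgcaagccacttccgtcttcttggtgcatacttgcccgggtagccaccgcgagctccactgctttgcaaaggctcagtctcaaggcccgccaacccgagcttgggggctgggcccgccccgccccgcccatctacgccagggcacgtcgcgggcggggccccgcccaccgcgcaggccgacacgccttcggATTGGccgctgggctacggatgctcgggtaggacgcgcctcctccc
Msh6 at its start site, chr17:87975054-87975083, plus strand: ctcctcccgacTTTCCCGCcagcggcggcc
Ung, chr5:114130185-114130385, plus strand: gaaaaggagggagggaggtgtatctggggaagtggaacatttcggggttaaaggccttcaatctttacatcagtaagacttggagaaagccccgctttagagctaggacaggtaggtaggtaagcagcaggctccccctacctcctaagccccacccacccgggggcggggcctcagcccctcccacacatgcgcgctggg

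The Brca1 stretch is the whole interval between the first exons of Brca1 and of Nbr1, a selective autophagy receptor gene that points the other way. It holds 1 CCAAT box and has 50.3% G and C. The Msh6 stretch is richer in G and C (71.4%) and holds an inverted CCAAT box upstream and an E2F-like match just inside the first exon. The Ung stretch (58.7% G and C) has neither motif, and a missing match says only that these letters are not in this window. A match is a description of the letters and not a bound site.

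RefSeq windows of 300 bases (250 before and 50 after the start) were found for 32 of the 38 genes, with 34 windows in all. TTTNNCGC, searched on both strands, was in 7 of these windows (20.6%, 6 genes) and in 5.17% of all 32851 mouse windows. CCAAT, searched on both strands, was in 19 windows (55.9%) against 37.4% of all windows. TTTGAA, the core of the CHR element of late cell cycle promoters, was in 1 window (2.94%) against 17.9% of all. The windows of all genes were not matched to these in G and C content. Among the called genes Brca1, Msh6 and Xrcc1 hold a CCAAT box, Msh6 also holds the E2F-like motif, and Ung and Trp53bp1 hold none of the 3 motifs. Besides Msh6, the E2F-like motif is in windows of Chek2, Bard1, Brca2, Rad51c and Xrcc6, none of them called by limma.

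The damage sensors come first. None of the 4 checkpoint kinase genes was called by limma. At an unadjusted p under 0.05 the count was 1, and edgeR and DESeq2 each called 1, in every case Chek2, the kinase that ATM activates after breaks. Atm, the break-sensing kinase itself and the most abundant of the 4, stood at 80.7, 121.9 and 99.1 CPM in WT and at 103.5, 102.7 and 131.6 CPM in KO, each in replicate order as throughout. WT replicate 2 lies above 2 of the KO libraries, and the groups overlap, with a log2 fold change of 0.17 (95% interval -0.19 to 0.54, limma adjusted p = 0.447). Chek2 was 35.0, 45.0 and 37.2 CPM in WT and 46.3, 44.0 and 47.3 CPM in KO. Only WT replicate 2 reaches the KO values, and the log2 fold change was 0.24 ± 0.10 (SE, limma adjusted p = 0.111). Without WT replicate 2 it was 0.34 with an adjusted p of 0.0147, and without WT replicate 1 it was 0.16 and not called. Chek2 was called in 5 of 19 alternatives. Chek1, the effector of ATR, differed by 0.22 (limma adjusted p = 0.313) and Atr, the sensor of single-stranded DNA at stalled forks, by 0.11 (adjusted p = 0.720). The WT libraries differ widely here, the highest being 1.79 times the lowest for Atr, 1.55 times for Chek1 and 1.51 times for Atm.

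The MRN complex binds and trims broken ends. None of its 3 genes was called by limma, none had an unadjusted p under 0.05, edgeR called none and DESeq2 called 1, Mre11a. Rad50, the ATPase of the complex and its most abundant transcript, was 103.8, 121.4 and 109.6 CPM in WT and 118.0, 102.7 and 126.5 CPM in KO. The groups overlap, with the lowest of all 6 values in KO, and the log2 fold change was 0.05 (95% interval -0.17 to 0.27). Mre11a, the nuclease, was 62.5 to 67.7 CPM in WT and 70.2 to 72.2 CPM in KO. These groups do not overlap, and the log2 fold change was 0.14 ± 0.06 (SE, limma adjusted p = 0.126). Nbn, the subunit that recruits ATM, differed by -0.03.

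Homologous recombination was represented by 8 genes, of which 1 was called. Brca1, the E3 ligase subunit that steers broken ends into recombination (chr11:101488764-101551955, minus strand), was 63.2, 69.8 and 63.2 CPM in WT and 81.6, 76.6 and 96.2 CPM in KO. Every KO library lies above every WT library, and KO replicate 3 is the highest. The mean went from 65.4 ± 3.81 CPM (SD, n = 3) to 84.8 ± 10.2 CPM (SD, n = 3), a ratio of 1.297 and a log2 fold change of 0.37 ± 0.09 (SE, limma adjusted p = 0.0215). The adjusted p was 0.0745 without WT replicate 3, 0.0605 without KO replicate 1 and 0.0573 without KO replicate 3, where the log2 fold change was 0.27. No other gene's span overlaps Brca1. Nbr1, which starts 193 bases away, had means of 126.0 ± 4.99 CPM without and 128.8 ± 4.49 CPM with the knockout (SD, n = 3 each, log2 fold change 0.03, limma adjusted p = 0.738).

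Bard1, the obligate partner of BRCA1 in the ligase, was 26.8, 34.5 and 27.6 CPM in WT and 33.9, 32.0 and 37.1 CPM in KO. WT replicate 2 lies among the KO values, and the log2 fold change was 0.22 ± 0.11 (SE, limma adjusted p = 0.178). Without WT replicate 2 it was 0.33 with an adjusted p of 0.0267, without WT replicate 1 it was 0.15 and not called, and Bard1 was called in 3 of 19 alternatives. Xrcc2, which acts in strand exchange during recombination, was 12.7, 14.3 and 13.3 CPM in WT and 15.6, 16.0 and 16.1 CPM in KO. The groups do not overlap, and the log2 fold change of 0.23 ± 0.08 (SE) missed the threshold with a limma adjusted p of 0.0540. It passed in edgeR (adjusted p = 0.0254), in DESeq2 (0.0147) and in limma without WT replicate 2 (0.0457). These are among 8 of 19 alternatives that called Xrcc2, and 11 did not. The other 5 genes sat near 0. Palb2, which bridges BRCA1 and BRCA2, differed by 0.02, Brca2, a mediator of recombination, by 0.03 and the helicase gene Blm by -0.01. Rad51c and Xrcc3, which act in the same pathway as Xrcc2, differed by -0.05 and -0.10. Their 95% intervals include 0, and that of Rad51c, the narrowest, ran from -0.22 to 0.12.

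The Fanconi anaemia proteins mark crosslinks between DNA strands by attaching ubiquitin to FANCD2 and FANCI. None of the 4 genes was called by limma, 1 had an unadjusted p under 0.05 (Fancl), and edgeR and DESeq2 called none. Fancd2, the most abundant, was 66.9, 73.6 and 66.2 CPM in WT and 66.1, 71.4 and 77.2 CPM in KO. The groups overlap over nearly their whole range (log2 fold change 0.05, 95% interval -0.13 to 0.24). Fancd2 lies on chromosome 6, whose tested genes had a median of -0.16, and with each chromosome centred it stood at 0.21 (limma adjusted p = 0.0508). Fancl, the ubiquitin ligase of the pathway, was 19.3, 21.5 and 21.4 CPM in WT and 18.2, 17.6 and 17.8 CPM in KO. All KO values lie below all WT values, and the log2 fold change was -0.21 ± 0.08 (SE, limma adjusted p = 0.0716), or -0.26 with an adjusted p of 0.0240 without WT replicate 1. Fancl was called in 3 of 19 alternatives, and its smallest difference was -0.14, after quantile normalization. Fanci, the partner of FANCD2, was 24.0 to 25.5 CPM in WT and 22.2 to 23.4 CPM in KO, also without overlap (-0.13, limma adjusted p = 0.194). Fanca, a subunit of the core complex, differed by -0.07.

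End joining and its regulator held 6 tested genes, of which 1 was called. Trp53bp1 encodes 53BP1, a chromatin protein that shields ends from trimming and so favours end joining (chr2:121193281-121271407, minus strand). It was 50.03, 55.1 and 47.0 CPM in WT and 63.3, 63.5 and 72.7 CPM in KO. No KO library reaches down to the WT range. The means were 50.7 ± 4.12 and 66.5 ± 5.38 CPM (SD, n = 3 each), a ratio of 1.31 and a log2 fold change of 0.39 ± 0.09 (SE, limma adjusted p = 0.0121). This gene lies on chromosome 2, where 863 genes were tested, 503 of them were called higher and the median was 0.34 on the log2 scale. With each chromosome centred on its own median the log2 fold change of Trp53bp1 was 0.05 and its adjusted p was 0.620. Its span shares 7.03% with Tubgcp4 on the other strand, which rose from 36.2 ± 4.39 to 48.9 ± 3.25 CPM (n = 3 each, limma adjusted p = 0.0127), and no source used here states whether reads of the pair were kept apart by strand. None of the other 36 tested repair genes lies on chromosome 2.

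**Figure D2:**
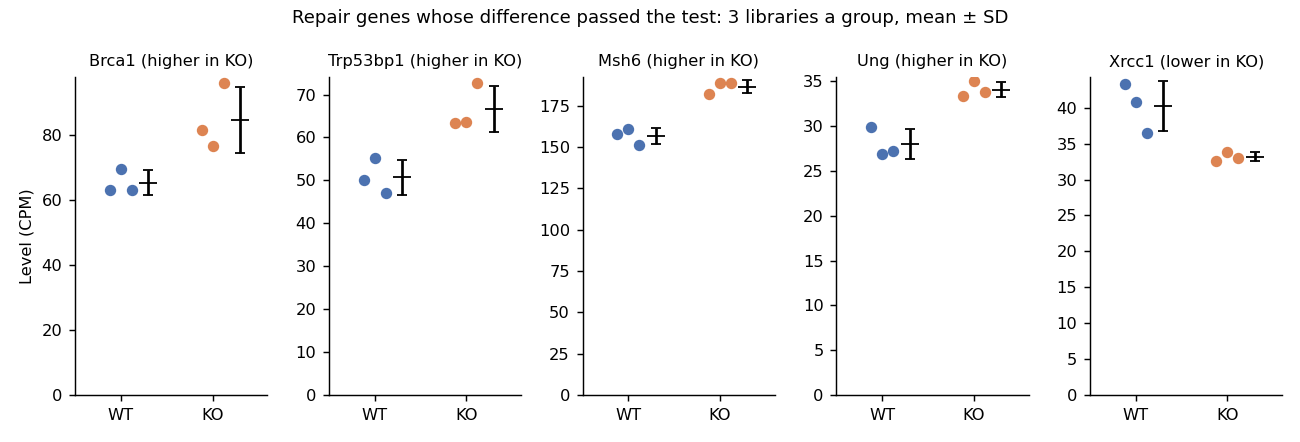
Level in CPM (vertical axes from 0, 1 panel a gene) of the 5 called repair genes in the 3 WT and 3 KO libraries, each point a library, with the mean ± SD beside the points. In every panel the 2 groups do not overlap, with KO above WT for Brca1, Trp53bp1, Msh6 and Ung and below WT for Xrcc1.

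The Ku heterodimer caps broken ends, and its subunits had fold changes of opposite sign, neither of them called. Xrcc5 (Ku80) was 86.6, 89.9 and 89.1 CPM in WT and 80.7, 81.2 and 77.0 CPM in KO. All KO values are lower, and the log2 fold change was -0.15 ± 0.06 (SE, limma adjusted p = 0.0846), with an adjusted p of 0.04997 without WT replicate 1. Xrcc6 (Ku70) was 58.8, 58.6 and 58.3 CPM in WT and 60.4, 61.7 and 61.7 CPM in KO. All KO values are higher, by a log2 fold change of 0.06 (limma adjusted p = 0.430), and 79.1% of its span is shared with Desi1. Prkdc, the catalytic kinase that Ku recruits, differed by 0.02, the ligase gene Lig4 by -0.09 and its cofactor gene Xrcc4 by 0.04. The 95% interval of Xrcc4 ran from -0.15 to 0.23 and that of Prkdc from -0.31 to 0.34.

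In mismatch repair, 1 of 2 genes was called. Msh6, a subunit that recognises base mismatches (chr17:87975062-87990892, plus strand), was 158.0, 160.7 and 151.5 CPM in WT and 181.9, 188.8 and 188.6 CPM in KO. The 3 KO libraries lie close together and above every WT library. The mean went from 156.8 ± 4.75 to 186.4 ± 3.91 CPM (SD, n = 3 each), a ratio of 1.19 and a log2 fold change of 0.25 ± 0.06 (SE, limma adjusted p = 0.0130). The adjusted p was 0.0742 after quantile normalization, 0.0592 without WT replicate 3 and 0.0544 without KO replicate 2. Fbxo11 on the other strand shares 34 bases with it. Pms2, an endonuclease subunit that acts after recognition, was 27.8 to 31.4 CPM in WT and 28.5 to 30.2 CPM in KO, and its log2 fold change was 0.01 (95% interval -0.16 to 0.18).

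Base and uracil excision repair held 7 tested genes, of which 1 was called in each direction. Ung, the main uracil-DNA glycosylase (chr5:114130386-114139323, plus strand), was 29.9, 26.9 and 27.2 CPM in WT and 33.4, 35.1 and 33.8 CPM in KO. Every KO value exceeds every WT value. The mean went from 28.03 ± 1.65 to 34.1 ± 0.852 CPM (SD, n = 3 each), a ratio of 1.22 and a log2 fold change of 0.28 ± 0.07 (SE, limma adjusted p = 0.0209). Of the fits that leave out a library, only the 1 without WT replicate 1 kept the call. The adjusted p was 0.0588 without WT replicate 2, 0.0720 without WT replicate 3, and 0.0656, 0.0845 and 0.0631 without KO replicates 1, 2 and 3.

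Xrcc1, the scaffold that brings polymerase beta and DNA ligase III to single-strand nicks (chr7:24546289-24573440, plus strand), was 43.4, 40.8 and 36.5 CPM in WT and 32.6, 33.8 and 33.1 CPM in KO. The KO values lie within about 1 CPM of each other and below the lowest WT value. The mean went from 40.2 ± 3.48 to 33.2 ± 0.611 CPM (SD, n = 3 each), a log2 fold change of -0.27 ± 0.08 (SE, limma adjusted p = 0.0355). The adjusted p was 0.0524 after quantile normalization, 0.0525 and 0.0745 without WT replicates 1 and 2, and 0.121, 0.0868 and 0.0965 without KO replicates 1, 2 and 3. No other gene's span overlaps Ung or Xrcc1.

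Smug1, a uracil glycosylase that also acts on single-stranded DNA, was 18.1, 21.5 and 18.8 CPM in WT and 15.9, 17.5 and 17.0 CPM in KO. The groups do not overlap, with KO lower, and the log2 fold change of -0.20 ± 0.09 (SE) did not pass (limma adjusted p = 0.124). Within a library Ung was 1.65, 1.26 and 1.45 times Smug1 in WT and 2.10, 2.00 and 1.99 times in KO, a pair chosen after the values were seen. Apex1, the endonuclease that cuts at the abasic site a glycosylase leaves, was 206.1 to 233.3 CPM in WT and 217.6 to 231.3 CPM in KO (0.05, 95% interval -0.10 to 0.21). Parp1, which senses nicks, was 409.5 to 456.4 CPM in WT and 393.4 to 426.3 CPM in KO (-0.08, 95% interval -0.24 to 0.07). Ogg1, the glycosylase for oxidised guanine, and Polb, the gap-filling polymerase beta, each differed by -0.12 with overlapping groups. Ogg1 also lies on chromosome 6, and its sign turned to 0.03 with each chromosome centred.

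Tdg, the glycosylase for thymine and uracil opposite guanine, was the 1 gene not tested. Its row holds 0, 1 and 0 reads in WT and 1, 4 and 0 reads in KO, where a count of 0 allows up to 0.0426 to 0.0594 CPM depending on the library. B2m, which nucleated cells express in general, is also listed at 0 in all 6 libraries, so such a row says only how the gene is listed, and no fold is given.

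None of the 3 nucleotide excision repair genes was called by limma, 1 had an unadjusted p under 0.05 (Ercc1), and edgeR and DESeq2 called none. Ercc2, the XPD helicase and the most abundant of the 3, was 24.6, 23.5 and 22.0 CPM in WT and 19.1, 19.8 and 22.9 CPM in KO. KO replicate 3 lies within the WT range, and the log2 fold change was -0.18 (95% interval -0.39 to 0.03, limma adjusted p = 0.173). Ercc1, the partner of the nuclease XPF, was 11.98, 11.8 and 9.55 CPM in WT and 8.68, 9.64 and 8.75 CPM in KO. WT replicate 3 lies within the KO range. The log2 fold change was -0.28 ± 0.11 (SE, limma adjusted p = 0.0837), and -0.38 with an adjusted p of 0.0302 without WT replicate 3. That was the 1 alternative of 19 that called Ercc1, and after quantile normalization it was -0.15 with an adjusted p of 0.340. Xpa, which verifies the lesion, was 16.3 to 17.1 CPM in WT and 14.6 to 15.9 CPM in KO without overlap (-0.12, limma adjusted p = 0.262). All 3 had negative fold changes, with a median of -0.18, and all 4 checkpoint kinases had positive ones, with a median of 0.20. Without WT replicate 1, however, Atr stood at -0.12, Atm at 0.02 and Chek1 at 0.05. Ercc1 and Ercc2 are neighbours on chromosome 7, and 76.7% of the span of Ercc2 is shared with Gm26852.

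On the scale of CPM per kilobase of the longest transcript, the repair genes spread over more than 2 orders of magnitude. Apex1 stood at 179 CPM per kilobase over the 6 libraries, Parp1 at 108, Msh6 at 40.4 and Xrcc5 at 32.9. Rad51c (2.88), Lig4 (1.49) and Xrcc3 (0.726) were the 3 lowest tested. The other called genes lay between, at 14.5 for Xrcc1, 11.4 for Brca1, 10.02 for Ung and 6.09 for Trp53bp1. Among glycosylases, Ogg1 (16.9) and Ung had higher levels per length than Smug1 (4.67). On the other strand, Pip4p1 shares 49.4% of the Apex1 span and Klc1 shares 43.6% of the Xrcc3 span. Whether reads of such pairs were kept apart by strand is not stated in any source used here.

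**Figure D3:**
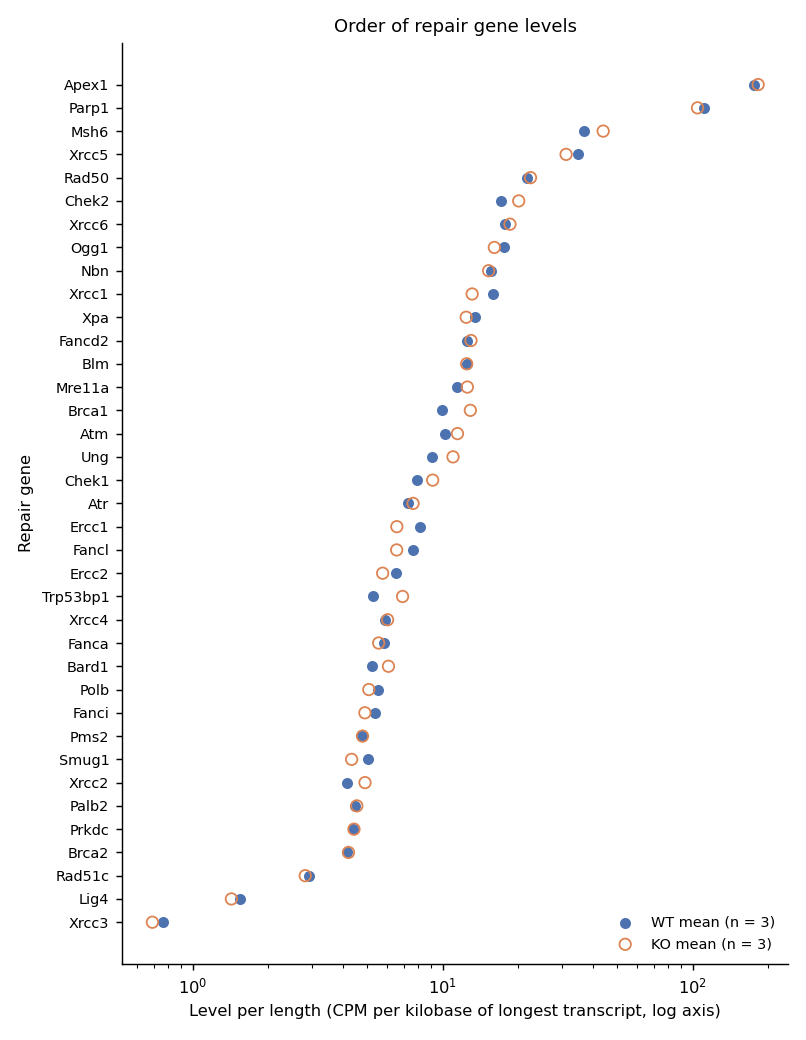
Mean level per length of each tested repair gene (horizontal log axis, CPM per kilobase of the longest annotated transcript) in WT (filled) and KO (open), n = 3 libraries each, sorted by the mean of all 6. Apex1 and Parp1 stand above 100 CPM per kilobase and Xrcc3 stands below 1.

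Libraries of the same group differed in a shared order across many repair genes. WT replicate 2 was the highest WT library in 27 of the 37 genes and KO replicate 3 the highest KO library in 25. Of the 10 genes whose transcripts fall in the longest 20% of all tested genes (at least 5225 bases, among them Atm, Atr, Brca1, Brca2, Prkdc and Trp53bp1), WT replicate 2 was the highest WT library in 10 and KO replicate 3 the highest KO library in 9. Of the 9 in the 20% with the least G and C (at most 43.7%, among them Atm, Atr, Chek1, Brca2, Prkdc and Lig4), WT replicate 1 was the lowest WT library in 9. Over the 2114 tested genes of that class the median log2 deviations were -0.25, 0.18 and 0.04 in WT and 0.04, -0.07 and 0.08 in KO, again in replicate order. In the 20% with the most G and C (at least 55.1%) they were 0.15, 0.0008 and -0.05 in WT and -0.09, 0.005 and -0.02 in KO. Xrcc1 (59.3%), Ercc2 (59.1%), Ercc1 (57.6%) and Xrcc3 (56.9%) fall in that class, and all had negative fold changes. Across the 37 genes the log2 fold change had a Spearman correlation of 0.40 with transcript length and -0.27 with G and C content, given as a description over genes measured in the same libraries (0.07 and -0.12 over 10568 tested genes). With a trend on length and G and C content removed from each library, 14 of the 37 were called, where 48% of all tested genes were called. Of the 14, 12 were higher, Atm, Chek1 and Chek2 among them, and 2 were lower, Fancl and Xrcc1. The part of these library differences in the group differences was not tested further.

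**Figure D4:**
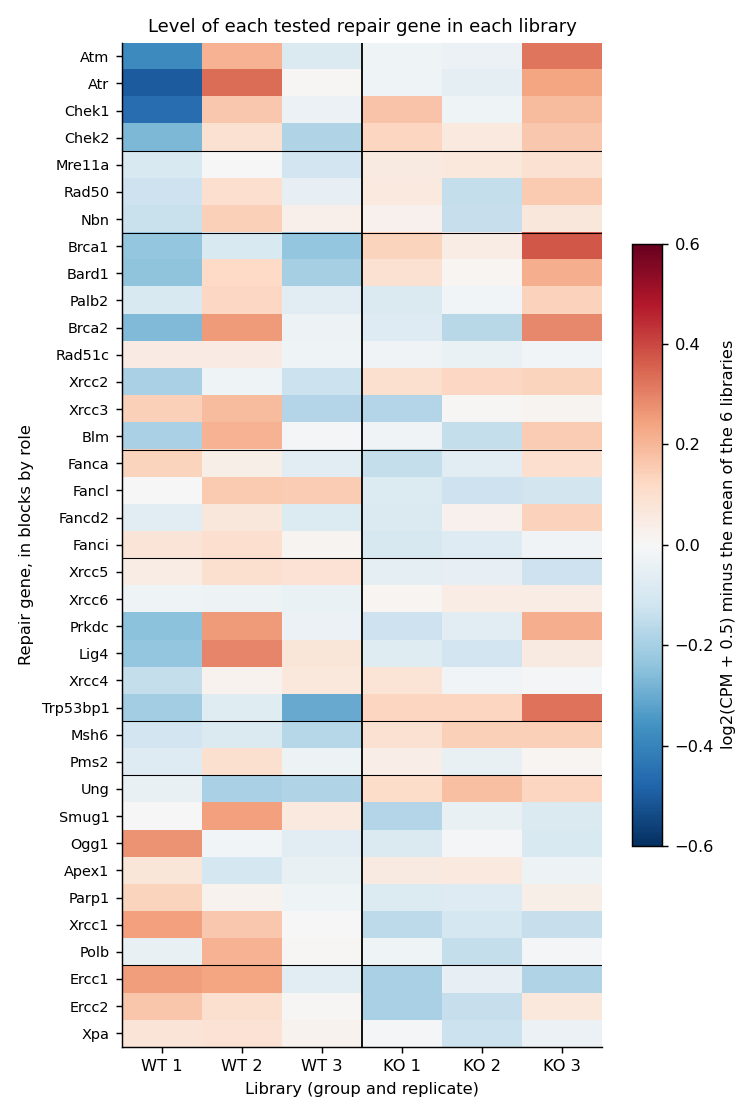
Deviation of each tested repair gene (rows, in blocks by role) in each library (columns) from its mean over the 6 libraries, on log2(CPM + 0.5), blue below and red above. WT replicate 1 is lowest and WT replicate 2 highest among WT for Atm, Atr and Chek1, and the rows of Brca1, Trp53bp1, Msh6 and Ung change from blue to red between the groups.

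The other genes of the same pathways were described beside these from lists of 130 symbols, of which 126 were tested. Of them 17 were called higher and 5 lower (17.5% called), with a median log2 fold change of -0.005, against 30.4% called and a median of -0.02 over all genes. Msh3, a mismatch recognition subunit, rose from 29.1 ± 4.33 to 51.7 ± 5.34 CPM (n = 3 each, limma adjusted p = 0.00162). Other genes called higher included Wee1, Hus1 and Rpa1 of damage signalling, Faap24 and Usp1 of the Fanconi pathway, Pcna and Rfc5 of mismatch repair, Dut of uracil avoidance, Ercc5 and Gtf2h1 of nucleotide excision repair, and the damage reversal gene Mgmt and bypass polymerase gene Polk. Those called lower were Rmi2 and Rad52 of recombination, Polm of end joining, the glycosylase gene Neil1 and Parp3. In the list of other recombination genes, 3 were called higher beside the 2 called lower. Pcna and Dut lie on chromosome 2, and centring each chromosome ended the calls of both (limma adjusted p = 0.173 and 0.907). Hus1, Rpa1, Rad52, Usp1, Polm, Rfc5, Parp3, Gtf2h1 and Polk each lost their call when at least 1 of the libraries was left out.

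Lig3, the ligase that XRCC1 holds, differed by -0.12 (limma adjusted p = 0.198) and was named after its values were seen.

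Markers of DNA replication and mitosis were set beside the repair genes, since many repair genes are made in S phase. Of 25 tested, 13 were called higher and 1 lower in KO (56% called), and their median log2 fold change was 0.24. Rrm2, a ribonucleotide reductase subunit (0.72, limma adjusted p = 8.06e-05), Aurka (0.71), Ccne1 (0.55) and Cdc6 (0.42) were the 4 with the smallest adjusted p, and Tk1 was the 1 called lower. Aurka lies on chromosome 2 and differed by 0.38 with each chromosome centred (adjusted p = 0.00799). The count called lower was 0 with TMM, with edgeR and on leaving out any library but WT replicate 3. Their part in the differences of the repair genes was not tested.

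**Figure D5:**
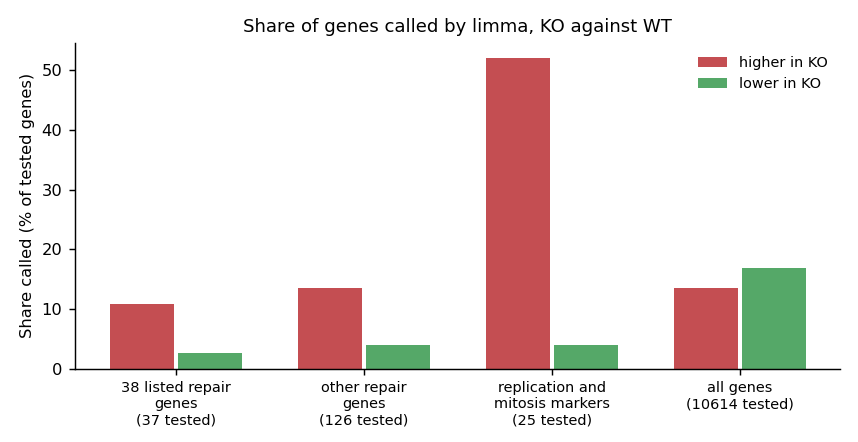
Share of tested genes called higher and lower in KO by limma (vertical axis, percent, from 0) for the 37 tested repair genes, 126 other repair genes, 25 replication and mitosis markers and all 10614 tested genes. The repair genes stand at 10.8% higher and 2.7% lower, beside 13.5% and 16.9% of all genes.

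The libraries held 50493447 to 70411383 reads, and 1 read equals 0.0142 to 0.0198 CPM. The ribosomal RNA row Rn45s took 2.75%, 0.381% and 2.43% of the reads in WT and 1.40%, 0.542% and 0.635% in KO, in replicate order. These reads are part of the totals that CPM is scaled to. The repair genes tested had means of 1.76 (Xrcc3) to 417 CPM (Parp1). The 10 macrophage markers summed to 3667 to 3810 CPM in WT and 3970 to 4402 CPM in KO, 5 of them called (3 higher, 2 lower). Lyz2 had the largest rise, from a mean of 707.8 to 1238 CPM, and Spi1 and Mertk, also called higher, lie on chromosome 2. Adgre1 and Fcgr1 were called lower, and without a call Csf1r was lower and Itgam higher without overlap. The higher KO sum thus does not hold for each marker. The 5 fibroblast, 5 lymphocyte and 4 epithelial markers were each under 0.2 CPM in every library. In bulk RNA, fewer cells of a state and less RNA per cell cannot be told apart. Apobec1 transcripts had means of 399.8 ± 29.3 (WT) and 347 ± 12.5 CPM (KO; SD, n = 3 each, exact two-sided permutation p = 0.1, the smallest this design allows), and since the edit is not described this level does not check the labels. Of the 38 gene spans, 27 overlap another gene, 24 of them on the other strand, and 11 share at least 10% of their length.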

How the data were processed

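Poly(A) RNA was sequenced as paired-end reads after KAPA mRNA HyperPrep, per the labels' protocols. STAR 2.6.0a, SAMtools, Picard, FastQC, Trim Galore and mm10 are named in the submitters' processing notes, and the column names state that duplicates were removed, per the file headers. No source used here gives the counter, annotation or strand use. Values are CPM as deposited by the authors. All values were whole multiples of 1 read (tolerance 0.01), so whole reads were recovered. 0 columns belonged to other samples.

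Genes with at least 1 CPM in 3 libraries were tested on log2(CPM + 0.5), KO against WT, with limma 3.58.1 (R 4.3.3; lmFit, eBayes with trend), Benjamini-Hochberg adjusted over all tested genes and called under 0.05. edgeR 4.0.16 (quasi-likelihood) and DESeq2 1.42.0 ran on recovered reads. The fit was also run on simulated counts. These gave every gene the same dispersion and held no length, G and C or chromosome 2 shifts, so they do not check the fit under such shifts. Coordinates, lengths and overlaps come from GENCODE M21 (mm10; 24305 symbols matched, 149 by an older symbol, 394 not), and promoters from RefSeq GRCm38.p6. CPM per read and floors (3 reads) cover counting error only.

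The members and lists were chosen with earlier results of these data known. Named genes are every member, with library values for called ones and the most abundant of roles without a call, and up to 3 called genes a list of other repair genes, 4 of cycle markers. Some genes that this rule picks are not reported here. Bard1, Chek2, Xrcc2, Fancl, Xrcc5, Xrcc6, Smug1 and Ercc1 have library values shown after these were seen. The 19 alternatives are other pseudocounts, filters, scalings and tools, a replicate block, and leaving out each library.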

Additional observations from a re-analysis of the deposited data

How the results depend on the processing

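The directions of Brca1, Trp53bp1, Msh6, Ung and Xrcc1 held under all 19 alternatives, and their calls held in 15, 18, 15, 13 and 12 of them. The 1 alternative that lost the Trp53bp1 call was the centring of each chromosome, which left a log2 fold change of 0.05. The others leave the shift of chromosome 2 in place. The 5 called repair genes became 8 (7 higher) with DESeq2 and 14 (12 higher and 2 lower) with the length and GC trend removed. Called lower were 0 after quantile normalization and 2 after rescaling without Rn45s. Leaving out a library gave 2 to 6 called repair genes (1 to 6 higher, 0 to 2 lower), the fewest without any single KO library, 1973 to 3761 called genes in all and 10 to 26 other repair genes against 22. It gave 10 to 18 replication and mitosis markers against 14. With the trend removed 5074 genes and 47 other repair genes were called. Same-numbered libraries did not deviate together (correlations of -0.25, -0.64 and -0.17). Other pairs ran from -0.44 (WT replicate 1 with KO replicate 3) to 0.61 (WT replicate 2 with KO replicate 3). Libraries also differ in trends on length and G and C content, so these correlations cannot settle whether plates were paired. The replicate block gave 1 called repair gene (Trp53bp1; 1 higher, 0 lower), 2009 called genes, 11 other repair genes and 10 replication and mitosis markers. Apobec1 differed by -0.20 (limma adjusted p = 0.0663), by -0.18 with DESeq2 (0.0327), by -0.14 with the trend removed (0.0389), by -0.27 after quantile normalization (0.0132), by -0.22 without Rn45s (0.0409), by -0.046 with chromosomes centred, and by -0.25 to -0.15 with a library left out. The cause was not tested. The sign of 16 uncalled repair genes changed in at least 1 alternative. SEs were 0.06 to 0.19 on the log2 scale, and the parts of counting error and plate spread in them were not separated; counts are lowest for Xrcc3, at 87 to 139 reads a library.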
